A study of Drosophila melanogaster with 6 samples.

Results

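The genes described here mark somatic cells of the Drosophila melanogaster ovary: tj, zfh1, Fas3, br, ct, mirr, slbo, cas and eya. They were taken by name, and all 9 were found among the 17070 genes measured in both experiments. RNA bound in ovary lysate was recovered by RNA immunoprecipitation with anti-Lsd1, anti-Bre1 or IgG and sequenced. Lsd1 is a histone demethylase, Bre1 is a ubiquitin ligase for histone H2B, and IgG is the background control. All groups came from wild type Oregon-R ovaries, pooled from about 200 females at most 12 hours after eclosion, and differed in the antibody alone. Each lysate was divided among the 3 antibodies in 2 experiments, which gave 6 libraries and 2 per antibody. The stated aim was a survey of noncoding RNAs with these complexes, whereas the 9 genes here are protein-coding.

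Each egg chamber holds germline cells wrapped in an epithelium of follicle cells, which descend from somatic stem cells in the germarium. Transcription factors set the fates of these cells as polar cells, stalk cells, border cells and main-body cells. Notch, EGFR, JAK/STAT, Hedgehog and ecdysone signals act on these fates. The ovaries of newly eclosed females are known to hold mainly early egg chambers. In a whole-ovary lysate, fewer cells of a type and less RNA per cell cannot be told apart.

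The members fall into groups by role. Traffic jam (tj) is a large Maf factor of the somatic gonad, and its transcript is known as a source of piRNAs in ovarian somatic cells. Zfh1 is a zinc finger and homeodomain repressor that also acts in muscle precursors. Castor (cas), a zinc finger protein, and eyes absent (eya), a transcriptional coactivator and phosphatase, are known to act against each other in the choice between polar or stalk and main-body fate. Fas3 is a homophilic adhesion protein of the immunoglobulin family, high on early follicle cells and polar cells. Cut (ct), a homeodomain protein, is kept in dividing follicle cells and lost when Notch ends their divisions. Broad (br), a BTB zinc finger factor of the ecdysone response, and mirror (mirr), an Iroquois homeodomain factor, pattern the dorsal follicle cells. Slow border cells (slbo) encodes the C/EBP factor needed for border cell migration in later egg chambers.

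By the coordinates of the files (dm6), tj lies on chromosome 2L from 19464267 to 19467758 and has a single exon. Fas3 spans 18320102 to 18393441 and eya 6527447 to 6546976 on the same arm. On chromosome X, br spans 1575132 to 1664869 and ct 7609148 to 7678859. On 3R, zfh1 spans 30765926 to 30789202 and cas 5712975 to 5716805. On 3L, mirr spans 12693639 to 12710249, and on 2R slbo spans 24331522 to 24334307. The annotated exons of a member add up to between 2786 bases (slbo) and 19777 bases (br). In br an overlapping gene on the other strand, Mur2B, held 3346 gene reads with IgG in experiment 2, 115 with Lsd1 and 879 with Bre1. Strand is not marked by the library kit, and reads of br and Mur2B in shared sequence cannot be told apart. The same holds for zfh1 and the noncoding gene CR45189 inside it, which held 141, 0 and 45 gene reads with IgG, Lsd1 and Bre1.

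Depth differed between libraries and in opposite ways in the experiments. Reads or fragments outside ribosomal RNA were fewest with Bre1 in experiment 1 (206637) and with Lsd1 in experiment 2 (1619605), against 1428387 to 8739562 in the other libraries. Germline markers such as vas and osk were present, with 13 of 14 listed markers tested and summed levels from 27.8 to 385 FPKM in experiment 1 and 28.5 to 632 RPKM in experiment 2. Muscle sheath markers were also present, with 11 of 12 tested and sums from 48.9 to 259 FPKM and 88.8 to 115 RPKM. No marker of hemocytes (6 listed), fat body (5) or neurons (5) passed the expression filter, and the highest sum over any of these lists in a library was 2.08. Of 7 listed gut markers 4 were tested. Gut markers summed to between 3.44 and 32.7 FPKM in experiment 1 and between 0.702 and 1.59 RPKM in experiment 2. Among them alphaTry had 10.2 FPKM with IgG and 15.9 with Lsd1 in experiment 1.

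Among the 9 members, tj was the most abundant and slbo the least abundant in all 6 libraries on the scale per length. FPKM (fragments of experiment 1 scaled to transcript length and library depth) and RPKM (the same for reads, experiment 2) come from different programs, so levels are compared within an experiment. In experiment 1 the level of tj was 6.54 FPKM with IgG, 7.81 with Lsd1 and 3.20 with Bre1, from 308, 329 and 94 fragments. In experiment 2 it was 16.0 RPKM with IgG, 5.63 with Lsd1 and 12.2 with Bre1, from 2715, 934 and 3170 reads. As deposited, the Bre1 library was the lowest of experiment 1 and the Lsd1 library the lowest of experiment 2 for all 9 members. These are the libraries with the fewest reads outside ribosomal RNA. Ribosomal RNA took 57.6% of exon reads with IgG in experiment 2, 88.7% with Lsd1 and 76.3% with Bre1. Per read outside ribosomal RNA, counting error aside, the order differed. Lsd1 was then the highest of experiment 2 for tj, eya, mirr, ct, cas and slbo, the lowest for zfh1, and between for br and Fas3. Bre1 was then the highest of experiment 1 for all but Fas3 and slbo, where it was the lowest.

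**Figure D1:**
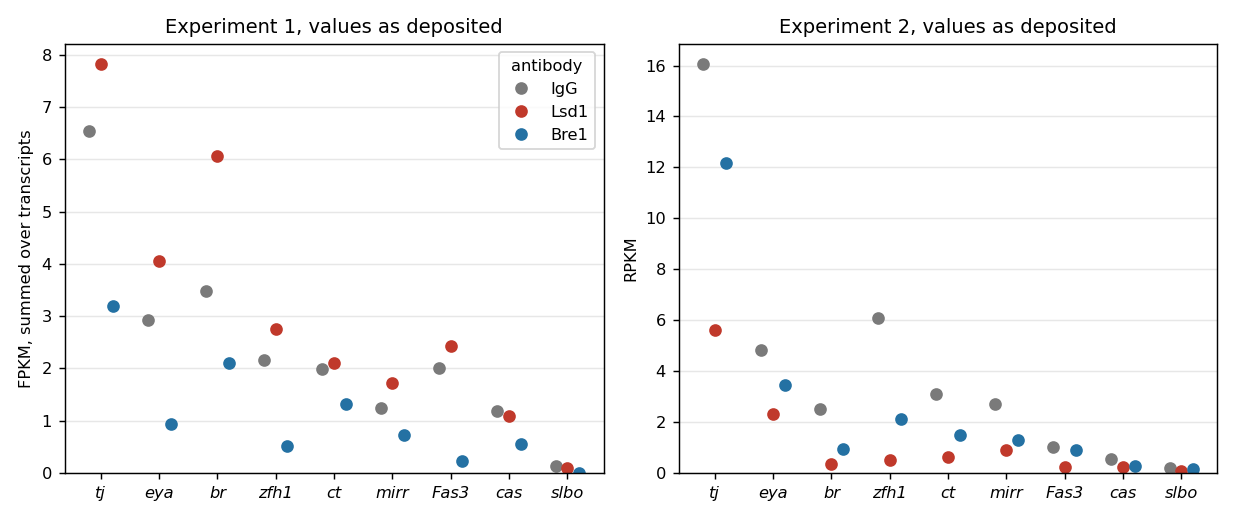
Level of each member in the 6 libraries as deposited, in FPKM for experiment 1 (left) and RPKM for experiment 2 (right), with 1 point per library and members ordered by their mean level. In every library tj stands highest and slbo lowest, and the Bre1 points of experiment 1 and the Lsd1 points of experiment 2 lie lowest for each member.

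The order below tj varied with the experiment. With IgG, Lsd1 and Bre1, eya had 2.92, 4.05 and 0.938 FPKM in experiment 1 and 4.81, 2.33 and 3.47 RPKM in experiment 2, and stood above mirr, Fas3, cas and slbo in all 6 libraries. The order of br and eya was split, with br higher in 3 of 6 libraries. In experiment 1 br had 3.48, 6.07 and 2.11 FPKM and ranked 2 in each library, and in experiment 2 it had 2.51, 0.336 and 0.952 RPKM and ranked 6 in each. For zfh1 the values were 2.16, 2.75 and 0.512 FPKM, then 6.10, 0.520 and 2.12 RPKM, and its rank ran from 2 to 7. For ct they were 1.99, 2.10 and 1.31 FPKM, then 3.09, 0.625 and 1.49 RPKM. The order of zfh1 and ct was therefore not settled, as zfh1 was higher in 4 of 6 libraries.

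The members of lower abundance were mirr, Fas3, cas and slbo. In the same order of libraries, the Iroquois gene mirr had 1.24, 1.72 and 0.716 FPKM, then 2.70, 0.919 and 1.29 RPKM. The adhesion gene Fas3 had 2.01, 2.44 and 0.237 FPKM, then 1.03, 0.220 and 0.881 RPKM. Fas3 stood above mirr in both the IgG and Lsd1 libraries of experiment 1 and below it in the other 4 libraries. Castor had 1.19, 1.10 and 0.551 FPKM, then 0.563, 0.234 and 0.281 RPKM, and was below Fas3 in 4 of 6 libraries. For slbo the values were 0.136, 0.0910 and 0 FPKM, from 5, 3 and 0 fragments, and 0.200, 0.0906 and 0.144 RPKM, from 27, 12 and 30 reads. The count of 0 with Bre1 in experiment 1 allows up to 3 fragments, so a lower level there was not detectable at this depth.

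Genes entered the tests when 2 or more of the 6 libraries had a value of 1 or above. This held for 6687 genes and for 8 of the 9 members, all but slbo. Among the tested genes, tj lay between the percentiles 73.9 and 95.3 of the 6 libraries, and cas between 3.02 and 50.8. In experiment 2 with IgG, Fas3 and cas were at the percentiles 5.29 and 3.02. Of the 6 libraries, cas reached a value of 1 with IgG and Lsd1 in experiment 1, and Fas3 there and with IgG in experiment 2. In experiment 2 every exon read of the members mapped uniquely except 1 of the 2715 reads of tj with IgG.

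The first comparison was of the anti-Lsd1 library of each experiment with the IgG library from the same lysate. No member passed the test, and the ratios of the 2 experiments differed. Values were put on a common scale by a median-ratio factor per library, and log2 ratios are of scaled values plus 1. The coactivator gene eya had the highest ratio of experiment 2, 1.08, against 0.10 in experiment 1. Its fitted change was 0.59 ± 0.72 (SE, n = 2 experiments; limma adjusted p = 0.962), and it was 1.11 without Lsd1 replicate 1, 0.07 without Lsd1 replicate 2 and 1.62 with edgeR on counts. For tj the ratios were -0.06 and 0.83 and the fitted change 0.39 ± 0.79 (limma adjusted p = 0.963). For mirr they were 0.07 and 0.56, and the fitted change was 0.31 ± 0.66.

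The remaining members had fitted changes near or below 0 with Lsd1, although br had the highest ratio of experiment 1. The ratios were 0.35 and -0.25 for br, -0.18 and 0.34 for cas, -0.14 and 0.07 for ct, -0.03 and 0.07 for Fas3, and 0.01 and -0.76 for zfh1, in experiments 1 and 2. Their fitted changes lay between -0.38 (zfh1) and 0.08 (cas), with SE from 0.51 to 0.70. For slbo, which was not tested, the ratios were -0.06 and 0.18. Only eya and mirr among the 8 tested members had a positive ratio in both experiments, and none had a negative ratio in both. Among all tested genes 6.43% were higher in both experiments and 34.7% were lower in both. In the values as deposited 0 tested members were higher in both experiments and cas was lower in both, against 0.628% and 17.3% of all tested genes.

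In limma with Benjamini-Hochberg adjustment 0 of the 8 tested members passed an adjusted p of 0.05 with Lsd1, against 2 of 6687 genes (0.0299%). At an unadjusted p under 0.05 there were 157 genes and 0 members, and edgeR on counts called 0 genes. Without Lsd1 replicate 1, which leaves 1 Lsd1 library, 1805 genes and 0 members passed, and without Lsd1 replicate 2 the count was 9 genes. Adjusted p-values of the members ran from 0.962 to 0.998, and from 0.164 to 1.00 over all alternatives. The fitted changes of 6 of the 8 members turned in sign in the values as deposited, where the median ratio of all genes was 0.28 (experiment 1) and -2.02 (experiment 2).

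In experiment 2 the members stood high with Lsd1 relative to other genes. After scaling, the median over all tested genes was -0.84. The ratios of all 8 tested members lay above it, from -0.76 for zfh1 to 1.08 for eya, with a median of 0.21. For cas and Fas3 this was fixed beforehand, as 1 is added to each value and their scaled IgG levels were 0.285 and 0.521. In the values as deposited 7 of the 8 lay above the median of all genes, the exception being zfh1 at -2.22. There cas, Fas3, br and mirr, at 0.563, 1.03, 2.51 and 2.70 RPKM with IgG, could not lie below that median of -2.02. In experiment 1 the median over all genes was 0.03 and the median over the members -0.01, with 5 of 8 members below that of all genes. Muscle sheath markers also had a positive median ratio with Lsd1 in experiment 2, 0.82 over 11 genes, against -0.27 in experiment 1, and their part in the values of the members was not tested. As deposited these medians were -0.54 and 0.05.

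The second comparison asked the same of anti-Bre1. Most members were above IgG in experiment 1 after scaling and near it in experiment 2, and none passed the test. The ratios were 0.80 and 0.23 for tj, 0.97 and -0.37 for br, 0.93 and -0.23 for ct, and 0.66 and -0.22 for mirr. They were 0.45 and -0.07 for cas, 0.23 and 0.13 for eya, -0.06 and -0.60 for zfh1, and -0.54 and 0.16 for Fas3. The untested slbo had -0.13 and 0.02. After scaling, tj and eya were higher than IgG in both experiments, and zfh1 was lower in both. Among all tested genes 10.0% were higher in both and 52.4% lower in both. In the values as deposited all 8 tested members were lower with Bre1 in both experiments, as were 94.0% of all tested genes.

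The largest fitted change with Bre1 was that of tj, 0.52 ± 0.79 (SE, n = 2 experiments), and the lowest that of zfh1, -0.33 ± 0.68. The value of tj was 0.0081 without Bre1 replicate 1 and 1.02 without Bre1 replicate 2, and that of zfh1 was -0.66 without IgG replicate 1 and -0.0052 without IgG replicate 2. All 8 tested members had a limma adjusted p of 1.00, and over the alternatives it ran from 0.715 to 1.00. In limma 0 members passed, against 2 of 6687 genes (0.0299%), while 260 genes and 0 members had an unadjusted p under 0.05 and edgeR on counts called 0 genes. Without Bre1 replicate 2 limma called 44 genes and 0 members, and without Lsd1 replicate 2 it called 43 and 0. The signs of 6 of the 8 fitted changes turned in the values as deposited, and 6 of 8 turned without Bre1 replicate 1.

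In experiment 1 the median Bre1 ratio of all tested genes was -0.40 and that of the tested members 0.55, with 1 of 8 members, Fas3, below that of all genes. In experiment 2 these medians were -0.22 and -0.15, with 3 of 8 members below that of all genes. Bre1 ratios moved with exon length. In experiment 1 the median Bre1 ratio was -1.26 for 949 protein-coding genes with under 1000 bases of exon and 0.00 for 2703 genes with at least 2500 bases, the class that holds all 9 members. In experiment 2 these medians were -0.39 and -0.17. The part of length in the values of the members was not tested.

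**Figure D2:**
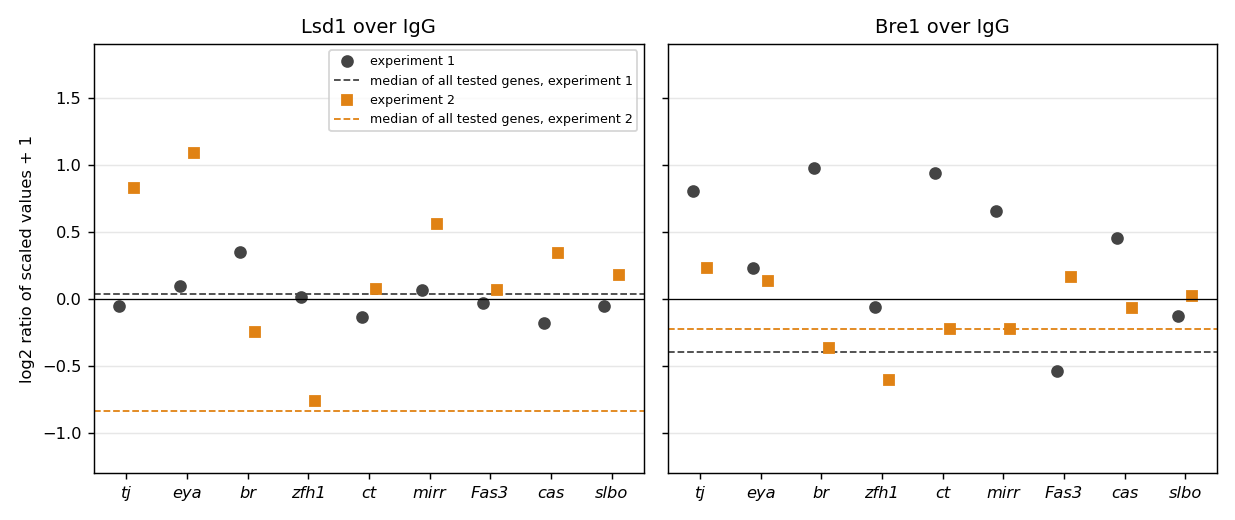
Log2 ratio of each member over IgG with Lsd1 (left) and Bre1 (right), in scaled values plus 1, with circles for experiment 1, squares for experiment 2 and dashed lines for the median over 6687 genes. With Lsd1 in experiment 2 all squares lie above the dashed line at -0.84. With Bre1 in experiment 1 all circles but that of Fas3 lie above the line at -0.40. At their low IgG levels the squares of cas, Fas3 and slbo with Lsd1, and the circle of slbo with Bre1, could not lie below these lines.

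Fragment and read counts set how far the ratios of single libraries were resolved. These ratios are per read outside ribosomal RNA, and their 95% Clopper-Pearson intervals cover counting error only. For eya, 408 reads with Lsd1 and 860 with IgG in experiment 2 gave a ratio of 2.56 (2.27 to 2.88), whereas 151 and 124 fragments in experiment 1 gave 1.10 (0.865 to 1.41). For tj the Lsd1 ratio was 1.86 (1.72 to 2.00) in experiment 2 and 0.969 (0.827 to 1.14) in experiment 1. For zfh1 it was 0.452 (0.384 to 0.528) in experiment 2 and 1.06 (0.834 to 1.36) in experiment 1. For each of these 3 genes the intervals of the experiments did not overlap. The experiment 1 fragments of eya and zfh1 were modelled from FPKM and length, and duplicate reads were not assessed. The intervals may therefore be too narrow. With Bre1, ct stood at 2.81 (2.25 to 3.48) in experiment 1, from 121 fragments against 298, and at 0.873 (0.812 to 0.938) in experiment 2. Fas3 rested on 5 fragments with Bre1 in experiment 1, and its ratio of 0.438 had an interval from 0.138 to 1.06.

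A direct comparison of the antibodies gave opposite signs in the experiments for each of the 8 tested members. The ratio of Lsd1 over Bre1 was -0.86 and 0.60 for tj, -1.07 and 0.30 for ct, -0.63 and 0.12 for br, -0.59 and 0.78 for mirr, -0.63 and 0.41 for cas, and -0.13 and 0.95 for eya. It was 0.08 and -0.16 for zfh1 and 0.51 and -0.10 for Fas3. The untested slbo had 0.07 and 0.16. Of the 8 tested members 0 were higher in both experiments and 0 were lower in both, against 9.88% and 20.0% of all tested genes. Fitted changes lay between -0.39 ± 0.68 (ct) and 0.41 ± 0.72 (eya). In limma 0 members passed, against 5 of 6687 genes (0.0748%), with 81 genes and 0 members at an unadjusted p under 0.05 and 0 calls by edgeR on counts. Without Lsd1 replicate 1 limma called 39 genes and 0 members, and without Lsd1 replicate 2 it called 20 and 0. The lowest adjusted p of a member over the alternatives was 0.349. The comparisons share libraries, so their values for a member are not independent.

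With IgG in experiment 2, intron reads took a larger share in Fas3, eya, ct, br, mirr and zfh1 than in most genes. Introns held 70.8% of the gene reads of Fas3 with IgG (802 of 1132 reads, 95% Clopper-Pearson interval 68.1 to 73.5). For eya the intron share was 57.3% (1153 of 2013 reads, 55.1 to 59.5). For ct it was 44.7% (1421 of 3182, 42.9 to 46.4) and for br 41.9% (1730 of 4132, 40.4 to 43.4). Lower shares were found for mirr, 19.6% (124 of 633), and zfh1, 4.35% (93 of 2136). In cas no intron read was found among 86 gene reads, which allows a share of up to 3.49%. The annotated exons of slbo together cover its whole span of 2786 bases, so no read could count as intronic, and tj has no intron. Over 5866 tested protein-coding genes with more than 1 exon and at least 50 gene reads, the median intron share with IgG was 0.674%. On this scale Fas3, eya, ct, br and mirr stood at the percentiles 99.5, 98.7, 97.5, 97.2 and 92.5, zfh1 at 81.5, and cas at 0. A percentile here counts genes with a lower share, so all genes without intron reads stand at 0. The share was not corrected for intron length, which differs widely between genes. Fas3 has 6612 bases of exon in a span of 73340, whereas cas has 3151 in 3831. The part of intron length in these ranks was not tested.

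The intron share of these genes was lower with both antibodies than with IgG. With Bre1 it was 15.9% for Fas3, 13.3% for eya, 11.7% for ct, 25.9% for br, 8.56% for mirr and 2.33% for zfh1. With Lsd1 it was 8% for Fas3 (6 of 75 reads), 0.244% for eya (1 of 409), 2.51% for ct (9 of 359) and 7.60% for br (26 of 342). For mirr and zfh1 no intron read was found with Lsd1 among 170 and 171 reads, which allows up to 1.76% and 1.75%. Relative to other genes of the same library the shares were still high with Bre1, at the percentiles 97.9 for Fas3, 97.3 for eya, 96.5 for ct, 99.1 for br and 94.4 for mirr. With Lsd1 the percentiles were 95.3 for Fas3, 95.2 for br, 90.2 for ct, 77.4 for eya and 0 for mirr and zfh1. In that library the median and the upper quartile of the share were both 0%. The 0 of mirr and zfh1 is thus a tie with most genes, and the place of eya rests on 1 read. The intervals with each antibody lay below those with IgG for Fas3, eya, ct, br, mirr and zfh1. The share of all genes with intervals apart in this way was not counted, so the fall is not shown to be particular to these members. The comparison is of single libraries, since experiment 1 gives no intron reads, and it has no replicate check. Over all reads of such genes, introns took 7.44% in the IgG library, 3.26% in the Lsd1 library and 1.69% in the Bre1 library. The br introns overlap Mur2B on the other strand, and their reads may be of either gene.

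**Figure D3:**
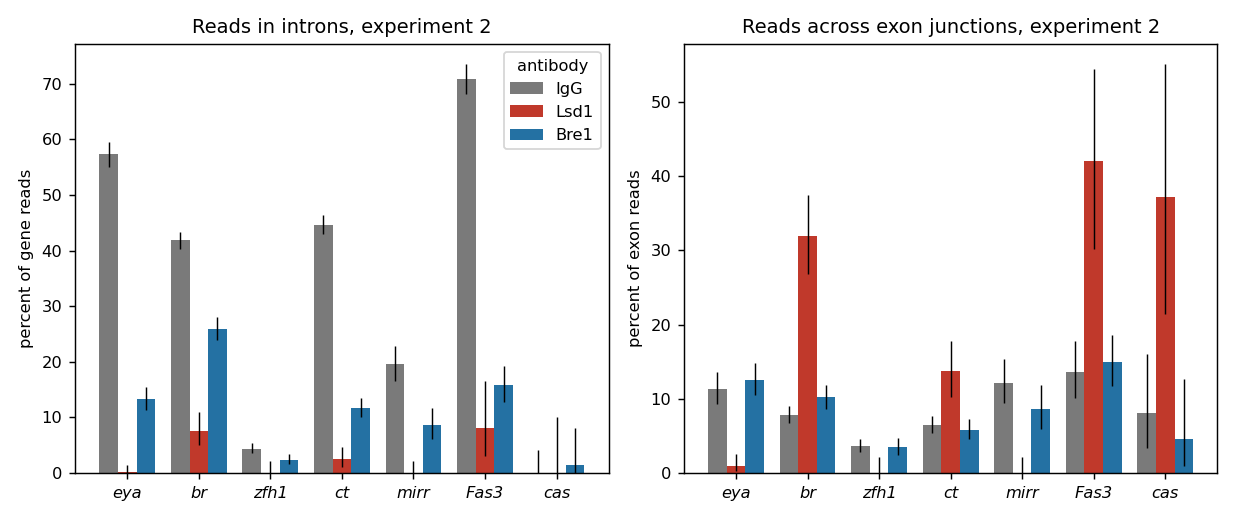
Share of gene reads in introns (left) and share of exon reads that cross an exon junction (right) in the 3 libraries of experiment 2, in percent with 95% Clopper-Pearson intervals, for the 7 tested members that have introns. Intron shares are highest with IgG for all but cas, and junction shares with Lsd1 lie above those with IgG for br, ct, Fas3 and cas and below them for eya, zfh1 and mirr.

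Reads across exon junctions showed a split among the members with Lsd1. With IgG the junction share of exon reads was 13.6% for Fas3, 12.2% for mirr, 11.3% for eya, 8.14% for cas, 7.83% for br, 6.42% for ct and 3.62% for zfh1. With Bre1 the shares were 14.9%, 8.56%, 12.6%, 4.55%, 10.2%, 5.80% and 3.48% in the same order. With Lsd1 no junction read was found among 170 exon reads of mirr and 171 of zfh1, which allows up to 1.76% and 1.75%, and eya had 4 among 408 (0.980%). In the same library 29 of 69 exon reads of Fas3, 101 of 316 of br, 13 of 35 of cas and 48 of 350 of ct crossed a junction. Over 2546 tested protein-coding genes with at least 50 gene reads in this library, the median junction share was 5.55%. It was 14.9% with IgG and 14.2% with Bre1. No junction read was found in 29.8% of these genes with Lsd1, against 2.57% with IgG and 2.64% with Bre1.

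Transcript tables of experiment 1 showed which forms of the members the fragments were assigned to. Transcript is used here for the annotated form, and its FPKM has the 95% limits that the authors deposited. With IgG, eya was split between FBtr0079335 at 1.73 FPKM (limits 1.26 to 2.21) and FBtr0079334 at 1.19 (0.733 to 1.64). With Lsd1 both were found at 1.61 and 1.60, beside FBtr0306113 at 0.836 (0.411 to 1.26). With Bre1 the whole of eya, 0.938 FPKM (0.538 to 1.34), was assigned to FBtr0306113, from 22 fragments. For ct, FBtr0071068 held 72.7% of the gene's FPKM with IgG, 76.7% with Lsd1 and nearly all of it with Bre1, at 1.45, 1.61 and 1.31 FPKM. For zfh1 the shorter transcript FBtr0085702 held 73.7%, 70.1% and 58.9%.

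The gene br had 14 listed transcripts, of which 4 had a lower limit above 0 with IgG, 5 with Lsd1 and 3 with Bre1. With IgG its main form was FBtr0303562 at 1.33 FPKM (1.12 to 1.53), which was also the highest with Lsd1 at 1.56 (0.667 to 2.45). With Bre1 FBtr0070261 held 68.5% of br at 1.45 FPKM (0.985 to 1.91), and FBtr0303562 stood at 0.115 (0.0285 to 0.201). The form FBtr0070261 was listed at 0 with IgG and with Lsd1. For Fas3, FBtr0112804 was the highest of 7 forms with IgG at 0.821 (0.462 to 1.18) and with Lsd1 at 1.01 (0.562 to 1.45), whereas the 5 fragments with Bre1 were assigned to FBtr0301391 alone. For mirr, FBtr0075912 held 80.5% with IgG, 48.0% with Lsd1 and all of the 18 fragments with Bre1, and its estimates carry the status for low data. Forms of 1 gene share most of their sequence, each value is of 1 library, and the limits cover the assignment within that library, so no difference between antibodies was tested.

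**Figure D4:**
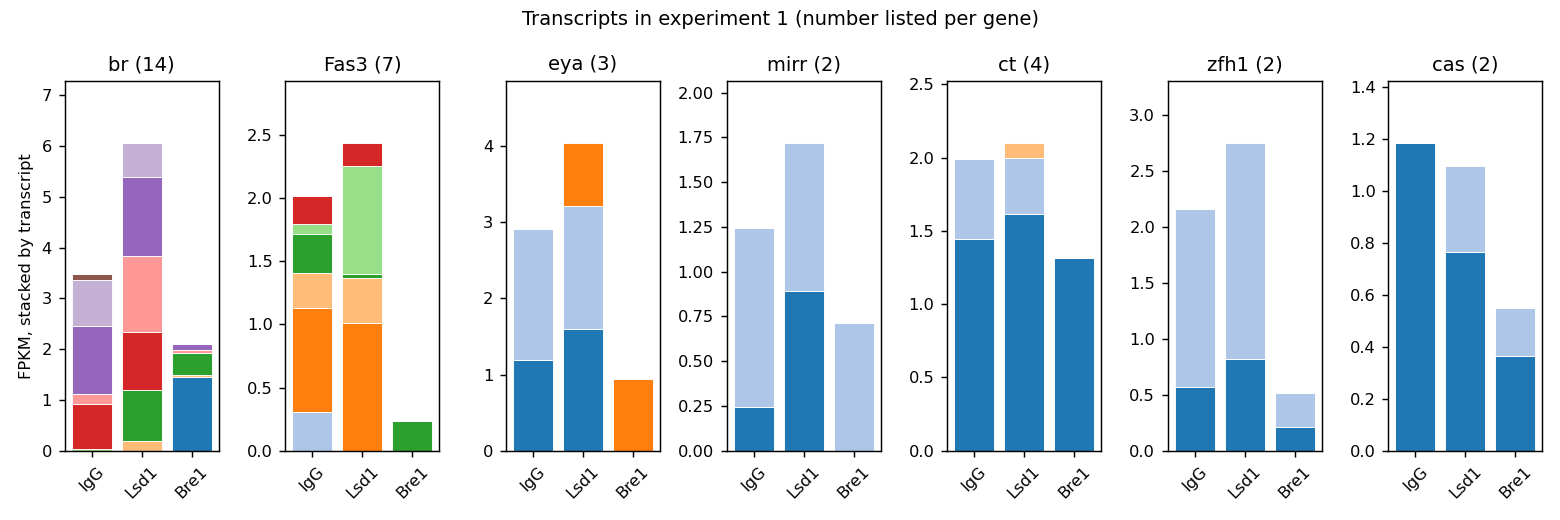
FPKM of each annotated transcript, stacked per gene, in the IgG, Lsd1 and Bre1 libraries of experiment 1, with 1 colour per transcript within a gene and the number of listed transcripts in brackets. For eya and br the Bre1 bar is made mostly of a colour that is missing in the IgG bar, and for Fas3 it is made of the form that is second in the IgG bar, at 0.310 FPKM there and 0.237 with Bre1.

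Genes of signalling pathways and of epithelial adhesion and polarity lay near the level of genes in general with Lsd1 in experiment 2. The lists were not restricted to follicle cells, and grk among them is also a listed germline marker. Of 60 such genes listed for the Notch, EGFR, JAK/STAT, Hedgehog and ecdysone pathways, for related regulators and for adhesion and polarity, 39 were tested. With Lsd1 0 of them rose and 0 fell in limma (0 at an unadjusted p under 0.05). Their median ratio was 0.21 in experiment 1 and -1.03 in experiment 2, with 35 of 39 and 5 of 39 above 0. Over all tested genes these medians were 0.03 and -0.84, and 54.6% and 15.7% of genes lay above 0. The tested members had -0.01 and 0.21, with 4 of 8 and 6 of 8 above 0. As deposited, the median of the 39 genes was 0.49 and -2.18. With Bre1 0 rose and 0 fell (0 unadjusted), with medians of 0.15 and -0.20, of which the first was -1.05 as deposited. For Lsd1 over Bre1 0 rose and 0 fell as well (0 unadjusted).

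Named by their mean level, the pathway genes had the following values. The receptor gene N had Lsd1 ratios of 0.39 and -1.68 and its ligand gene Dl 0.24 and -1.55, while peb, a Notch target that opposes ct, had 0.55 and 0.28. The level of N in experiment 2 was 15.9 RPKM in the IgG library, 0.678 in the Lsd1 library and 8.89 in the Bre1 library. In the JAK/STAT list, the ratios were 0.42 and -2.44 for the transcription factor gene Stat92E, 0.17 and -1.77 for apt, and 0.25 and -0.41 for the receptor gene dome. In the EGFR list they were 0.18 and -0.37 for Cbl, 0.44 and -0.80 for the repressor gene aop, and 0.27 and 0.37 for the ligand gene grk, which is expressed in the germline. The Hedgehog genes cos, smo and ci had 0.22 and -0.79, 0.20 and -1.45, and -0.04 and -1.27. Among ecdysone genes, usp had 0.17 and -0.81, ftz-f1 0.21 and -1.64, and Eip75B 0.28 and 0.50.

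The adhesion and polarity genes act in the same epithelium as Fas3. In experiment 2 the Lsd1 ratio was negative for 12 of 12 tested, with a median of -1.05 (-2.70 as deposited), near all tested genes, of which 83.0% were below 0 with a median of -0.84. In experiment 1 the median of the list was 0.17. For arm, the beta-catenin gene, the ratios were 0.18 and -1.63, for sdk 0.56 and -0.999, and for scrib 0.42 and -0.24. Fas3 itself had -0.03 and 0.07. Of the related regulators, ttk had 0.46 and -1.12 and exd, a homeodomain cofactor, 0.00 and -0.64. Germline markers (13 tested) had Lsd1 medians of 0.27 and -2.02. The Bre1 medians of the adhesion genes were 0.25 and -0.08, with 7 of 12 and 5 of 12 above 0, and as deposited they were -1.07 and -0.63.

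The members did not share a single pattern over the 6 libraries. Pearson's r of log2 scaled values, over 6 libraries that differ in depth, program and experiment, was 0.85 for tj with eya, 0.83 for tj with mirr, 0.81 for mirr with eya and 0.84 for br with cas. It was -0.86 for tj with Fas3. The gene most like tj was SRm160 (r = 0.99), and that most like eya was Socs36E (r = 0.99), a JAK/STAT target gene in the list above. For Fas3 it was wal (0.99), for br CG32264 (0.99), for zfh1 CG5745 (0.99), for cas CG7564 (0.98), for mirr snRNP-U1-70K (0.98) and for ct CR44114 (0.98), a gene at or near 0 FPKM with IgG and Lsd1 in experiment 1. With 6 libraries, between 6 (mirr) and 108 (Fas3) of the tested genes had an r over 0.95 with a member, so these names are a description only.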

How the data were processed

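RNA from ovary lysate was measured in 6 libraries made without selection for polyadenylated RNA, per the labels' protocols. For experiment 1 the authors deposited FPKM per transcript with limits, in Cufflinks format per the file headers. The deposited tables of experiment 2 hold RPKM and read counts (exon, intron, junction, unique) per gene, by their file headers, and the sources used here do not give the program behind them. Per the submitters' processing notes the tools were Cufflinks, TopHat, SAMtools 0.1.18.0 and Bowtie2 2.0.6.0, with build dm6. The design assumed FPKM throughout, and RPKM was used for experiment 2, so experiment and program cannot be told apart.

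Transcript FPKM was summed per gene. Tables were joined by FlyBase identifier (17021 genes) or symbol (80, br among them), and 31 genes without an estimate in a library were dropped. Scaling used each library's median ratio across 1028 genes that reached 1 in all 6, and log2(scaled value + 1) was fitted, which understates changes of low genes. The fit used limma 3.58.1 in R 4.3.3 (mean-variance trend, 2 residual and 118.8 prior degrees of freedom) over 6687 genes, with antibody and experiment as terms and Benjamini-Hochberg adjustment. The experiment term takes out the difference between the 2 lysates. p-values thus rest mostly on how far antibody differences disagreed between the lysates, as pooled over all genes. This spread may be technical, and a gene's own spread counts little. The experiment was a block because a lysate was divided among the antibodies, per the labels; deviations from antibody means correlated at 0.47, 0.51 and 0.11 (IgG with Lsd1, IgG with Bre1, Lsd1 with Bre1), which the different programs can also cause. For genes with 1 transcript, fragment numbers of experiment 1 came from the width of the deposited limits; for others they were modelled from FPKM and length. Of recovered values under 50 fragments, 85.5% (IgG), 83.6% (Lsd1) and 83.9% (Bre1) were whole within 0.05. These fragments and the read counts served edgeR 4.0.16 as an alternative. The other alternatives were values as deposited, quantile normalization, a filter minimum of 5 or none, a pseudocount of 5 or 0.1, no block and leaving out each library in turn. Intervals (scipy 1.17.1) are Clopper-Pearson at 95%, and a count of 0 allows 3 counts.

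All 9 members are named, with up to 3 tested genes of highest mean level per pathway list and the gene most like each member. The members and lists were chosen with earlier results of these data known. No sequences are printed.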

Additional observations from a re-analysis of the deposited data

Results flagged for a closer look

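The share of exon reads that cross a junction, a measure apart from the level, stood above the IgG control in 4 of the 7 tested members that have introns with Lsd1 in experiment 2. The junction share of exon reads was 42.0% for Fas3 (29 of 69 reads, 95% interval 30.2 to 54.5) against 13.6% with IgG, and 32.0% for br (101 of 316, 26.9 to 37.4) against 7.83%. It was 37.1% for cas (13 of 35, 21.5 to 55.1) against 8.14%, and 13.7% for ct (48 of 350, 10.3 to 17.8) against 6.42%. The other 3 lay below IgG, with 0.980% against 11.3% for eya, 0% against 12.2% for mirr and 0% against 3.62% for zfh1. The median over the genes compared was 5.55% with Lsd1, 14.9% with IgG and 14.2% with Bre1, and 29.8% of genes had no junction read with Lsd1. Among genes with IgG these 7 members lay between the percentiles 7.28 (zfh1) and 45.4 (Fas3). The share of all genes that stood above IgG with Lsd1 was not counted. Each is a single library with 1619605 reads outside ribosomal RNA, and the differences between libraries were not tested over replicates.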

How the results depend on the processing

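Of 315 fitted changes of members under all alternatives, 257 kept their direction, 58 turned and 0 were called. Part of the 257 could not turn, as the fitted change stays the same without a block (24) or a filter (24). The same holds with a minimum of 5 (3) and without a library of the antibody that is not in the comparison. In the values as deposited the Lsd1 changes were -0.57 for tj, -0.27 for Fas3, -0.37 for br, -0.33 for mirr, -0.20 for cas and -0.22 for eya. The Bre1 changes were -0.61 for tj, -0.69 for br, -0.54 for ct, -0.54 for mirr, -0.39 for cas and -0.70 for eya, and Lsd1 over Bre1 gave 0.041 for tj, 0.14 for zfh1, 0.32 for br and 0.19 for cas. Quantile normalization turned zfh1 (0.077) and ct (0.37) with Lsd1, Fas3 (0.055) with Bre1, and zfh1 (0.082) and cas (0.045) in Lsd1 over Bre1. With edgeR on counts, zfh1 (0.13) and ct (0.85) turned with Lsd1, zfh1 (0.026) with Bre1, and tj (0.22), zfh1 (0.11), br (0.10) and cas (0.60) in Lsd1 over Bre1. The cause was not tested. The median over the members was 0.07 with Lsd1 and became 0.39 with a minimum of 5 (tj alone tested), -0.35 as deposited, 0.46 after quantile normalization and 1.10 with edgeR. With Bre1 it was 0.20 and became -0.65 as deposited and 0.70 with edgeR. The 2, 2 and 5 genes called with Lsd1, with Bre1 and for Lsd1 over Bre1 became 0, 0 and 0 under each of no replicate block, a pseudocount of 0.1, no filter, values as deposited, quantile normalization and edgeR. With a pseudocount of 5 they became 15, 1 and 15, and a minimum of 5 gave 5 genes with Bre1. Leaving out the replicate block, which stands for the divided lysate, cannot alter a fitted change, as each antibody was used in each experiment. Only the SE and p-values could move.

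When each library was left out in turn, genes called ran from 0 to 1805 with Lsd1, 0 to 44 with Bre1 and 0 to 39 for Lsd1 over Bre1, where an antibody left with 1 library is assumed to vary like the others. Medians over the members ran from -0.14 to 0.42, -0.21 to 0.68 and -0.48 to 0.28. With Lsd1 the ranges were -0.20 to 0.97 (tj), -0.18 to 0.22 (Fas3), -0.44 to 0.54 (br), -0.43 to 0.36 (ct), -0.15 to 0.78 (mirr), -0.31 to 0.47 (cas), -0.71 to -0.047 (zfh1) and 0.073 to 1.11 (eya). With Bre1 they were -0.51 to 0.14 (Fas3), -0.22 to 0.82 (br), -0.28 to 0.99 (ct), -0.35 to 0.78 (mirr), -0.20 to 0.58 (cas), -0.11 to 0.48 (eya), 0.0081 to 1.02 (tj) and -0.66 to -0.0052 (zfh1). For Lsd1 over Bre1 they were -0.72 to 0.46 (tj), -0.29 to 0.21 (zfh1), -0.12 to 0.53 (Fas3), -0.77 to 0.27 (br), -1.02 to 0.25 (ct), -0.47 to 0.66 (mirr), -0.50 to 0.28 (cas) and -0.11 to 0.93 (eya). Set beside intron shares of zfh1, Fas3, br, ct, mirr and eya, the median over tested protein-coding genes was 0.674% with IgG, 0% with Lsd1 and 0.706% with Bre1. Depth limits slbo in all libraries and Fas3, mirr, cas, zfh1 and eya with Bre1 in experiment 1, where they had 5 to 22 fragments.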
